A study of Mus musculus with 16 samples.

Results

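The genes described here encode the RNA polymerase machinery of the mouse: the subunits of RNA polymerases I, II and III and the factors that start transcription by polymerases I and III. They were chosen by a rule on gene names and comprised 43 of the 22328 genes with a probe on the array (64 probes, 18 genes with more than 1). The cells were OT-1 T cells from lymph node, heterozygous for a transgenic T cell receptor that recognises the ovalbumin peptide SIINFEKL, on a Rag-/- background that leaves the animal without other T and B cell receptors. They were either WT or Lck-/- (also marked OFF in the deposited table, a word the labels do not explain), where Lck, a tyrosine kinase of the Src family, acts in the earliest step of signalling from that receptor. All cells of both genotypes were cultured with 100 nM peptide for 24 h and held with cycloheximide (100 µg/ml for 10 min). Ages and the number of animals are not given in the sources used here.

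RNA from sucrose gradients was pooled into a sub-polysomal pool (fractions 1 to 5) and a polysomal pool (fractions 6 to 10), which holds mRNAs that carry several ribosomes. An array carried both pools of 1 extract in different dyes, and every extract was run again with the dyes exchanged, so 8 extracts (4 WT, 4 Lck-/-) filled 16 arrays on 2 slides. Equal volumes of each pool were labelled (1.5 µl), not equal masses. Probes well above background numbered 14619 to 50776 per array for polysomal RNA and 12531 to 30976 for sub-polysomal RNA. Lck itself was lower but still bright in Lck-/- extracts (sub-polysomal level 13.97 to 14.10 against 14.67 to 14.94 in WT, log2, limma adjusted p = 0.00277), and the labels do not say which part of the gene was changed. The 7 T cell markers examined were above background in both channels of all 16 arrays. Of 4 B cell markers Cd79b and of 4 myeloid markers Csf1r and Itgam were also above background on all 16. Averaged over both pools, Cd79b, Csf1r and Itgam differed by 0.16, 0.28 and -0.71 (Lck-/- minus WT, log2). Their part in the results was not tested. The labels call the extracts biological replicates but do not tie them to animals or cultures, so p-values measure the spread between these samples only.

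For WT replicates 1 and 2, an array and its labelled dye swap disagreed. Over all genes, deviations from the genotype mean correlated at -0.83 and -0.81 within these extracts, at 0.87 and 0.94 when their dye-swap arrays were exchanged, and at 0.46 to 0.84 within the other 6. The labelled arrays of every extract lay on different slides, while the arrays of each exchanged pair lay on the same slide. The part of the slide in these correlations was not tested. Values use the labelled pairing. Exchanging these arrays keeps the difference between genotypes and changes its error, so members that lose their call between genotypes are named below. For single members, tests of a ratio against 0 and values of WT extracts are given for the labelled pairing alone. Calls of genes outside the name rule are given for the labelled pairing alone.

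RNA polymerase I transcribes the large ribosomal RNA precursor, polymerase II transcribes mRNA, and polymerase III transcribes tRNAs, 5S ribosomal RNA and other small RNAs. The enzymes have subunits of their own (Polr1, Polr2 and Polr3 genes) and share others: Polr1c and Polr1d belong to polymerases I and III, and Polr2e, Polr2f, Polr2h, Polr2k and Polr2l to all. Polymerase I is brought to its promoter by Ubtf, by Rrn3 and by the Taf1a to Taf1d proteins of the SL1 complex. Factors of polymerase III, which differ between promoters, include TFIIIC (Gtf3c1 to Gtf3c6), the alternative TFIIIB subunits Brf1 and Brf2 and, on 5S genes only, TFIIIA (Gtf3a). T cells that leave rest after antigen enlarge, and the output of ribosomal RNA and tRNA is part of that growth.

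Probes of Gtf3a and Ubtf are shown because their results rest on them; each probe is 60 bases long, written in the sense of the mRNA, with positions on build mm9. The Gtf3a probe gave a ratio that differed between genotypes with the labelled pairing of arrays. Its coordinates span more than the probe length, so it maps in separate blocks.

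Gtf3a, chr5:147765633-147766738, plus strand: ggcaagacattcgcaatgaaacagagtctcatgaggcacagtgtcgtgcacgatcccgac

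For Ubtf the first 30 bases of its 2 tested probes are given. The brighter, at chr11:102166995-102167054 on the minus strand, opens with a run of 14 TG units (28 bases, in capitals), and the other, at chr11:102167265-102167324 on the minus strand, has none.

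Ubtf, brighter probe: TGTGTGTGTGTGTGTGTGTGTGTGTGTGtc
Ubtf, other probe: aacgagacgtttcctaccgatctcggctgc

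The first question was how much of each mRNA sat on polysomes in WT cells. Ratios are log2 of polysomal over sub-polysomal RNA after loess, which sets the typical spot of each array to about 0, so a positive ratio means more polysomal than the typical mRNA of that array. Genes were compared if, in WT and likewise in Lck-/-, 6 or more of the 8 arrays read both channels well above background, and 41 of the 43 members qualified. The exceptions were Taf1a and Taf1b, subunits of SL1. In WT, 12 members lay above 0 and 13 below at a limma adjusted p under 0.05, beside 33.5% and 28.8% of all 8266 genes tested (62.3% in either direction). Members ranged from -1.92 to 1.08. By enzyme, the median WT ratio was 0.27 over the 3 subunits of polymerase I alone, 0.14 over the 10 of polymerase III and -0.42 over the 8 of polymerase II, and the medians of polymerases I and III lay above that of polymerase II in each of the 4 WT extracts. Members of each enzyme nonetheless lay on both sides of 0.

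Of the 2 largest subunits of each polymerase, most were more polysomal than the typical mRNA in WT, some only slightly. Polr3a and Polr1b had means of 0.26 and 0.27 (limma adjusted p = 0.0249 and 0.0651). Polr2b, the second largest subunit of polymerase II, had the highest WT ratio, with 1.12, 1.07, 1.16 and 0.97 in the 4 WT extracts (mean 1.08, adjusted p = 0.00011). Polr3b, its counterpart in polymerase III, followed with 1.02, 1.13, 0.97 and 0.92, and Polr1a, the largest subunit of polymerase I, with 0.84, 0.93, 0.82 and 0.89. With the labelled pairing every WT extract was well above 0 for these genes. Rrn3, which links polymerase I to its promoter, had a mean of 0.75 (adjusted p = 3.03e-05), Polr2h 0.71, Gtf3c4 0.70 and Gtf3c1 0.65. Over the 2 largest subunits of each polymerase (6 genes) the median WT ratio was 0.57 and 5 of 6 lay above 0, while over the other 22 subunits tested the median was -0.20 and 9 lay above 0. The exception among the large subunits was Polr2a, the catalytic subunit of polymerase II, with -0.62, -0.80, -1.21 and -0.81 (mean -0.86, adjusted p = 0.000282).

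Several small subunits and 1 initiation factor sat at the other end. Taf1d, a subunit of SL1, was the least polysomal member, with -1.74, -1.70, -1.89 and -2.37 in WT (adjusted p = 7.63e-06). Polr2k, a small subunit of all 3 enzymes, followed with -0.92, -0.84, -0.63 and -2.16 (mean -1.14, adjusted p = 0.00109). Among subunits of polymerase II, Polr2i, Polr2m and Polr2j had means of -0.89, -0.73 and -0.63, and the subunits shared by polymerases I and III, Polr1d and Polr1c, had -0.86 and -0.76. WT replicate 4 gave the lowest WT value for each of these 7 genes, by the widest margin for Polr2k and Polr2m. In Lck-/- cells 11 members lay above 0 and 16 below (26.9% and 29.2% of all genes, 56.1% in either direction). Of the members, 9 were above in both genotypes and 10 below in both, with no share of all genes taken for comparison.

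**Figure D1:**
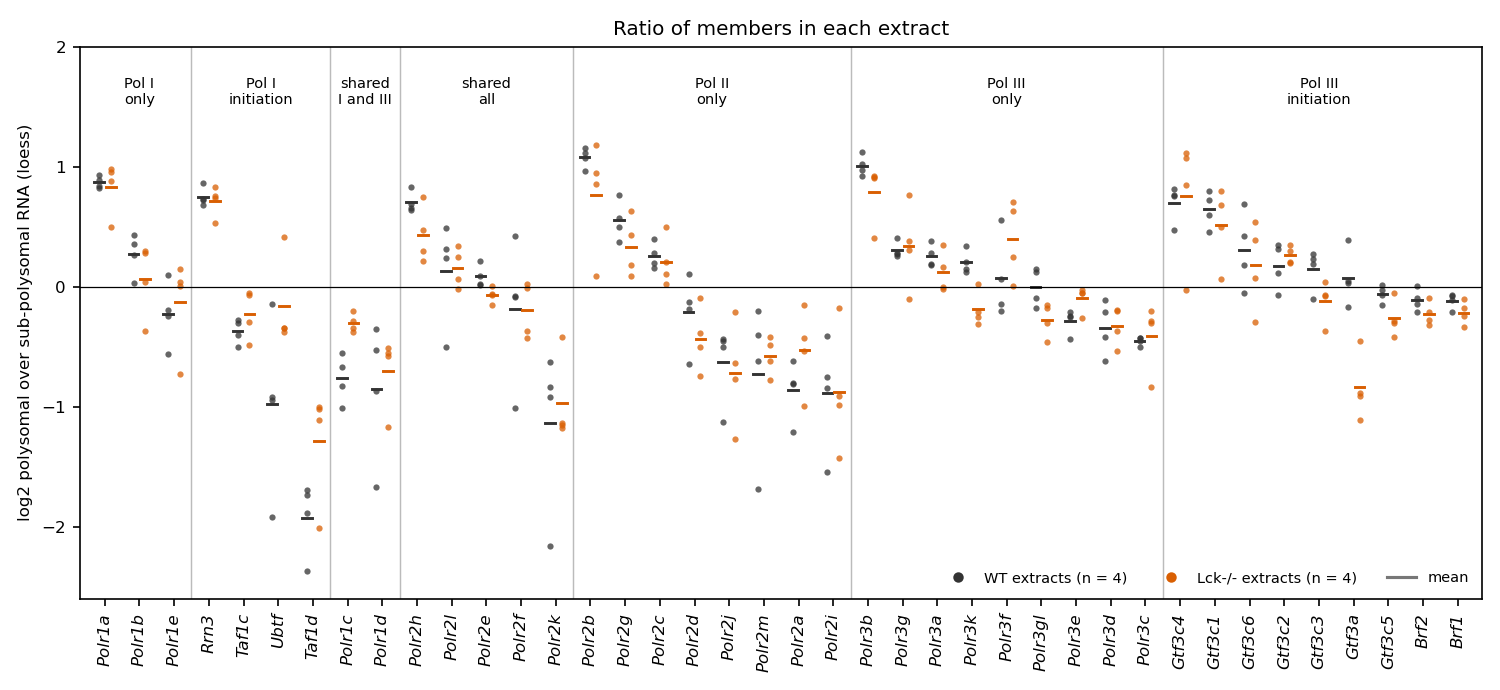
Ratio of polysomal over sub-polysomal RNA (log2, loess) of 40 of the 41 members tested, grouped by the polymerase they serve and ordered by WT mean; points are extracts (4 WT, 4 Lck-/-) and bars are means. Each enzyme holds both polysomal members (Polr1a 0.87, Polr2b 1.08, Polr3b 1.01 in WT) and others near or below 0. The genotypes overlap for most genes, while Gtf3a passed the test without overlap with the labelled pairing of arrays.

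The second question was whether the ratio differed between genotypes. Of 41 members, 2 had a lower ratio in Lck-/- cells (4.88%) and 0 a higher one, where 3.86% of all genes tested passed in either direction (2.81% higher, 1.05% lower). That share is near the background, and the members' median difference, -0.04, equalled that of all genes, -0.04. At an unadjusted p under 0.05 there were 6 members, where 20.8% of all genes tested passed that threshold.

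Gtf3a encodes TFIIIA, the zinc finger protein that binds 5S ribosomal RNA genes and 5S RNA. Its ratio was 0.04, 0.03, -0.17 and 0.39 in WT and -0.91, -1.11, -0.45 and -0.89 in Lck-/- extracts. All Lck-/- extracts lay below all WT extracts, and the difference was -0.91 (SE 0.17, n = 4 per genotype, limma adjusted p = 0.0161), a 1.88-fold lower ratio. The single arrays were less even than these means. The 2 arrays of WT replicate 1 read -1.43 and 1.52, and those of WT replicate 2 read 1.75 and -1.69, so the WT values near 0 of these extracts average opposite readings. With the dye-swap arrays exchanged the difference was still -0.91 but its SE was 0.54 (adjusted p = 0.662). Within slide 1 it was -0.13 (SE 0.44) and within slide 2 -1.70 (SE 0.36), and the call was lost without WT replicate 1 (adjusted p = 0.0505) or Lck-/- replicate 4 (0.0573).

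**Figure D2:**
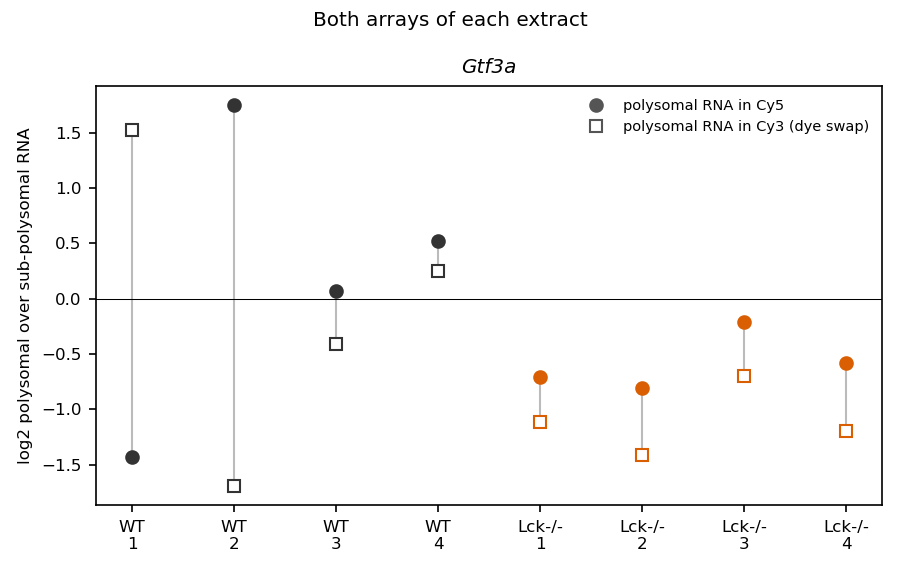
Ratio (log2, loess) of Gtf3a on both arrays of each of the 8 extracts; filled circles have the polysomal RNA in Cy5 and open squares in Cy3, and a line joins the arrays of an extract. The arrays of WT replicates 1 and 2 lie on opposite sides of 0 (-1.43 and 1.52, 1.75 and -1.69), while all 8 Lck-/- arrays lie below 0.

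The members given next did not pass. Polr3k, a small subunit of polymerase III, read 0.34, 0.20, 0.13 and 0.15 in WT and -0.31, 0.02, -0.25 and -0.21 in Lck-/- (difference -0.39, adjusted p = 0.104). The widest ratio differences of polymerase II were 0.34 for Polr2a and -0.31 for Polr2b (adjusted p = 0.345 and 0.425). Polr1c was the only member with a higher ratio in every Lck-/- extract (0.46, adjusted p = 0.0784), and 4 were lower in every one, beside 5.72% and 8.81% of all genes (14.5% in either direction). Taf1d differed by 0.64 (adjusted p = 0.171). Ratios of Polr1a, Rrn3, Polr3g and Polr3c differed by 0.05 or less in either direction, with SEs of 0.12 to 0.17. The alternative polymerase III subunits Polr3g and Polr3gl, which replace each other in the enzyme, differed by 0.03 and -0.27 (adjusted p = 0.938 and 0.26). Brf1 and Brf2 differed by -0.10 and -0.12 (SE 0.11 each).

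Ratios after loess are relative to the typical mRNA of an array, and before it the median ratio of the 2 signals was lower in Lck-/- extracts. The cause of that shift was not tested. Unnormalized median log2 ratios were 1.04 to 1.73 in WT and 0.21 to 0.78 in Lck-/-. With each array only centred on a single median, the median difference of all genes was -0.78 and 26 members passed, all lower, as did 56.3% of all genes. In the authors' deposited table, which keeps the overall level, all genes had a median of -1.15 and 38 of the 41 members passed, all lower, as 90.3% of all genes passed. With the authors' columns centred, 2 members passed, Gtf3a again among them. The directions given for single members are therefore relative to the array's typical mRNA, and with these scalings no member had a higher ratio by the test.

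The third comparison took each pool alone. Levels are log2 intensities of a channel after scaling between arrays, so a difference is relative to the other probes of that pool and not an amount per cell; fewer cells of a type and less RNA per cell cannot be told apart. All 43 members were bright enough in at least 1 genotype for both levels. In the sub-polysomal pool 9 members rose in Lck-/- cells and 0 fell (20.9%), where 20.3% of all 9704 genes tested passed, 9.49% higher and 10.8% lower. In the polysomal pool 2 rose and 2 fell (9.30%), where 15.2% of 10294 genes passed, 5.96% higher and 9.25% lower. The members' median difference was 0.19 in the sub-polysomal pool (all genes 0.05) and 0.22 in the polysomal pool (all genes 0.00). Without overlap between genotypes, 11 members were higher and 0 lower in the sub-polysomal pool (13.9% and 12.3% of all genes, 26.1% together), and 7 higher and 2 lower in the polysomal pool (10% and 12.9%, 23% together). Altogether 13 of the 43 members passed in at least 1 of the 3 comparisons, as did 26.1% of the 10519 genes tested in any of them. The 13 were 9 of 19 that serve polymerase III alone, 2 of 9 that serve polymerase I alone, 2 of 7 shared subunits and 0 of 8 that serve polymerase II alone. No test of the difference between these shares was run, since genes are not replicates. Within slide 1 the sub-polysomal count was 13 higher and 2 lower (12.6% and 12.7% of all genes), and within slide 2 it was 2 higher and 0 lower (0.804% and 2.04%). The polysomal count was 0 within slide 1 (1.45% of all genes in either direction) and 5 higher and 2 lower within slide 2 (10.3% and 10.1%). For polymerase II alone, unadjusted p was under 0.05 for 0 members in the ratio, 0 in the polysomal level and 2 in the sub-polysomal level, where the shares of all genes were 20.8%, 31.6% and 37.2%.

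Polr1a, the catalytic subunit of polymerase I, was the only member higher in both pools by the test. Its sub-polysomal level was 11.18, 10.67, 10.83 and 10.59 in WT and 11.53, 11.48, 11.55 and 11.74 in Lck-/- extracts. Every Lck-/- extract lay above every WT extract, by 0.76 on average (SE 0.15, adjusted p = 0.00716, 1.69-fold). Its polysomal level rose by 0.71 (SE 0.19, adjusted p = 0.0265), from 12.03, 11.60, 11.65 and 11.48 to 12.03, 12.36, 12.51 and 12.72, with the groups touching at WT replicate 1 and Lck-/- replicate 1. The polysomal call was lost without WT replicate 2, 3 or 4 or Lck-/- replicate 3 or 4 (adjusted p 0.0692 to 0.0832), and the rise was 0.25 with median centring. The sub-polysomal call held without each extract in turn and with dye swaps exchanged (adjusted p = 0.0496), but within slide 2 the difference was 0.47 (adjusted p = 0.269). These values come from the brightest probe. A second Polr1a probe, dimmer (mean log2 intensity 7.94 against 11.62), differed by 0.24 in the sub-polysomal and 0.07 in the polysomal pool.

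The other subunits of polymerase I had smaller differences above 0 and did not pass. Polr1b, the second largest subunit, differed by 0.39 in the sub-polysomal pool (adjusted p = 0.0739) and 0.18 in the polysomal pool, and Polr1e, a subunit of its initiation module, by 0.21 and 0.30. Further polymerase I subunits lie outside the name rule because the array carries older names. Of these, Znrd1 (now Polr1h) rose by 0.62 in the sub-polysomal pool (adjusted p = 0.00974) and Twistnb (now Polr1f) by 0.73 in the polysomal pool (adjusted p = 0.0243). Cd3eap (now Polr1g) differed by 0.37 and 0.30 in the sub-polysomal and polysomal pools and did not pass. Crcp, a polymerase III subunit also outside the rule, differed by -0.02 and -0.04 (adjusted p = 0.927 and 0.912).

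Among initiation factors of polymerase I, Ubtf passed in the polysomal pool. Its polysomal level was 15.40, 15.44, 14.20 and 15.89 in WT and 15.91, 16.65, 16.05 and 16.36 in Lck-/- extracts, a rise of 1.01 (SE 0.31, adjusted p = 0.0488), with WT replicate 3 far below the rest and the highest WT extract just below the lowest Lck-/- extract. These values come from the probe with the TG run shown above. The array holds 52 probes with at least 10 TG or GT units in a row, and all 52 had a WT ratio below 0 (median -1.08) and a ratio difference above 0 (median 0.79); this Ubtf probe, with -0.98 and 0.82, lay near these medians. The other Ubtf probe read a WT ratio of 0.74, on the opposite side of 0, and a ratio difference of 0.24. It too was higher in the polysomal pool, by 0.75 (SE 0.22, adjusted p = 0.0427), and differed by 0.51 in the sub-polysomal pool (adjusted p = 0.104). For the brighter probe the call was lost without 6 of the 8 extracts in turn (WT replicates 1 to 3 and Lck-/- replicates 2 to 4, adjusted p 0.0737 to 0.118), and the rise was 0.67 without WT replicate 3; it was also lost with dye swaps exchanged (0.0771). Rrn3 and Taf1a to Taf1d did not pass in either pool, with differences from -0.39 to 0.34.

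Polymerase III showed most of the sub-polysomal rises. Polr3b, its second largest subunit, had 9.16, 9.03, 9.06 and 9.14 in WT and 9.88, 9.75, 9.63 and 9.98 in Lck-/- extracts. The groups were far apart relative to their spread, and the rise was 0.71 (SE 0.12, adjusted p = 0.00451, 1.64-fold). It passed under all 24 other settings run, with adjusted p of 0.000336 to 0.04. Its polysomal level was also higher in every Lck-/- extract (0.49, adjusted p = 0.0575). Polr3k rose by 0.70 (SE 0.16, adjusted p = 0.0121), from 10.75, 10.55, 10.88 and 10.91 to 11.21, 11.29, 11.64 and 11.74. Polr3gl rose by 0.60 (SE 0.18, adjusted p = 0.0412), but Lck-/- replicate 2 (10.01) lay within the WT range of 9.52 to 10.05, and the call was lost without 6 of the 8 extracts in turn (all but WT replicate 1 and Lck-/- replicate 2, adjusted p 0.0548 to 0.11). A second Polr3gl probe, dimmer (mean log2 intensity 7.15 against 10.03), differed by 0.13. The alternative subunit Polr3g differed by 0.33 without passing (limma adjusted p = 0.0848). Polr3a, the catalytic subunit, differed by -0.06 (SE 0.13), so of the large subunits of polymerase III only Polr3b passed.

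Within TFIIIC, the complex that recognises tRNA promoters, 3 subunits rose in the sub-polysomal pool. Gtf3c6 had the largest rise of all members in that pool, from 10.89, 11.15, 11.38 and 11.09 in WT to 11.80, 11.56, 12.21 and 12.31 in Lck-/- extracts (0.84, SE 0.19, adjusted p = 0.0113, 1.79-fold). The groups did not overlap. Gtf3c5 rose by 0.50 (adjusted p = 0.0315) and Gtf3c1, the largest subunit, by 0.46 (adjusted p = 0.0409), again without overlap. The Gtf3c5 call was lost without WT replicate 2, 3 or 4 or Lck-/- replicate 3 or 4 (adjusted p 0.0566 to 0.0887), and the Gtf3c1 call without these or Lck-/- replicate 2 (0.0541 to 0.108). With dye swaps exchanged, Gtf3c1, Gtf3c5 and Polr3gl lost their calls (adjusted p 0.0925, 0.0752 and 0.0706) and the other 6 kept theirs. Gtf3c2 and Gtf3c4 differed by -0.21 and 0.32 and did not pass.

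Another TFIIIC subunit, Gtf3c3, and TFIIIA went the other way in the polysomal pool. Gtf3c3 had 8.93, 8.88, 9.08 and 8.92 in WT and 7.81, 8.80, 8.18 and 7.84 in Lck-/- extracts. WT values were tight and Lck-/- replicate 2 was close to them; the level fell by 0.79 (SE 0.21, adjusted p = 0.0287). The call was lost without any WT extract or Lck-/- replicate 3 or 4 (adjusted p 0.0572 to 0.0882) and with dye swaps exchanged (0.0808). Gtf3a had the largest polysomal difference of all members, from 10.98, 11.07, 11.62 and 11.28 in WT to 10.09, 9.45, 10.10 and 9.31 in Lck-/- extracts. It fell by 1.50 (SE 0.22, adjusted p = 0.00285, 2.83-fold lower), with no overlap. Unlike its ratio, this fall passed with dye swaps exchanged (adjusted p = 0.0204) and without each extract in turn; within slides it was -1.08 and -1.92, the first with adjusted p = 0.162. In the sub-polysomal pool Gtf3a differed by -0.59 and Gtf3c3 by -0.53 (adjusted p = 0.0847 and 0.061).

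Among the subunits common to all polymerases, 2 rose in the sub-polysomal pool. Polr2h went from 11.82, 11.50, 11.53 and 11.77 in WT to 12.34, 12.11, 12.18 and 12.41 in Lck-/- extracts (0.61, SE 0.13, adjusted p = 0.0115). Its second tested probe differed by 0.62. Polr2e went from 13.65, 13.62, 13.65 and 13.36 to 14.11, 14.07, 14.07 and 14.05 (0.50, SE 0.12, adjusted p = 0.0160), the tightest Lck-/- group among members that passed. Its other tested probe differed by -0.04, and with all Polr2e probes averaged the rise was 0.23 (adjusted p = 0.444). Polr2f, Polr2k and Polr2l differed by -0.18, -0.14 and 0.37. The other tested Polr2l probe, which was dimmer, went the other way (-0.31).

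Polr3f, a subunit of the polymerase III initiation module, was the widest difference of that enzyme in the polysomal pool without passing. It read 8.83, 7.94, 8.70 and 8.16 in WT and 8.91, 8.62, 9.45 and 9.37 in Lck-/- extracts (0.68, SE 0.24, adjusted p = 0.0795), and the groups overlapped. Its ratio also had the highest difference among polymerase III subunits (0.33, limma adjusted p = 0.395). A second Polr3f probe, dimmer (mean log2 intensity 7.88 against 8.61), differed by -0.04 in the ratio and 0.20 in the polysomal pool. Polr3c, Polr3d and Polr3e, which complete that enzyme's peripheral modules, differed by -0.04, -0.09 and 0.24 in the polysomal pool and by -0.08, -0.11 and 0.05 in the sub-polysomal pool. Brf1, which recruits polymerase III to tRNA genes, differed by 0.18 and 0.28 in these pools, and Brf2, its counterpart at U6-type promoters, by -0.11 and 0.01.

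No subunit of polymerase II alone passed in a level. The widest differences were 0.44 for Polr2g and 0.34 for Polr2c in the sub-polysomal pool (adjusted p = 0.063 and 0.0933), both higher in every Lck-/- extract, and -0.49 for Polr2b in the polysomal pool (adjusted p = 0.173). The other tested Polr2c probe differed by 0.12 in the sub-polysomal pool. In the polysomal pool it differed by -0.16, where the brightest Polr2c probe differed by 0.29. Polr2a, the catalytic subunit, differed by 0.01 in the polysomal pool (SE 0.16) and -0.33 in the sub-polysomal pool (SE 0.20, adjusted p = 0.243). Polr2d, which forms the polymerase II stalk with Polr2g, differed by -0.32 and -0.10, Polr2j by -0.29 and -0.20, Polr2i by 0.28 and 0.27, and Polr2m by 0.27 and 0.12. With 4 members above 0 and 4 below in the sub-polysomal pool, subunits of polymerase II had no common direction there.

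**Figure D3:**
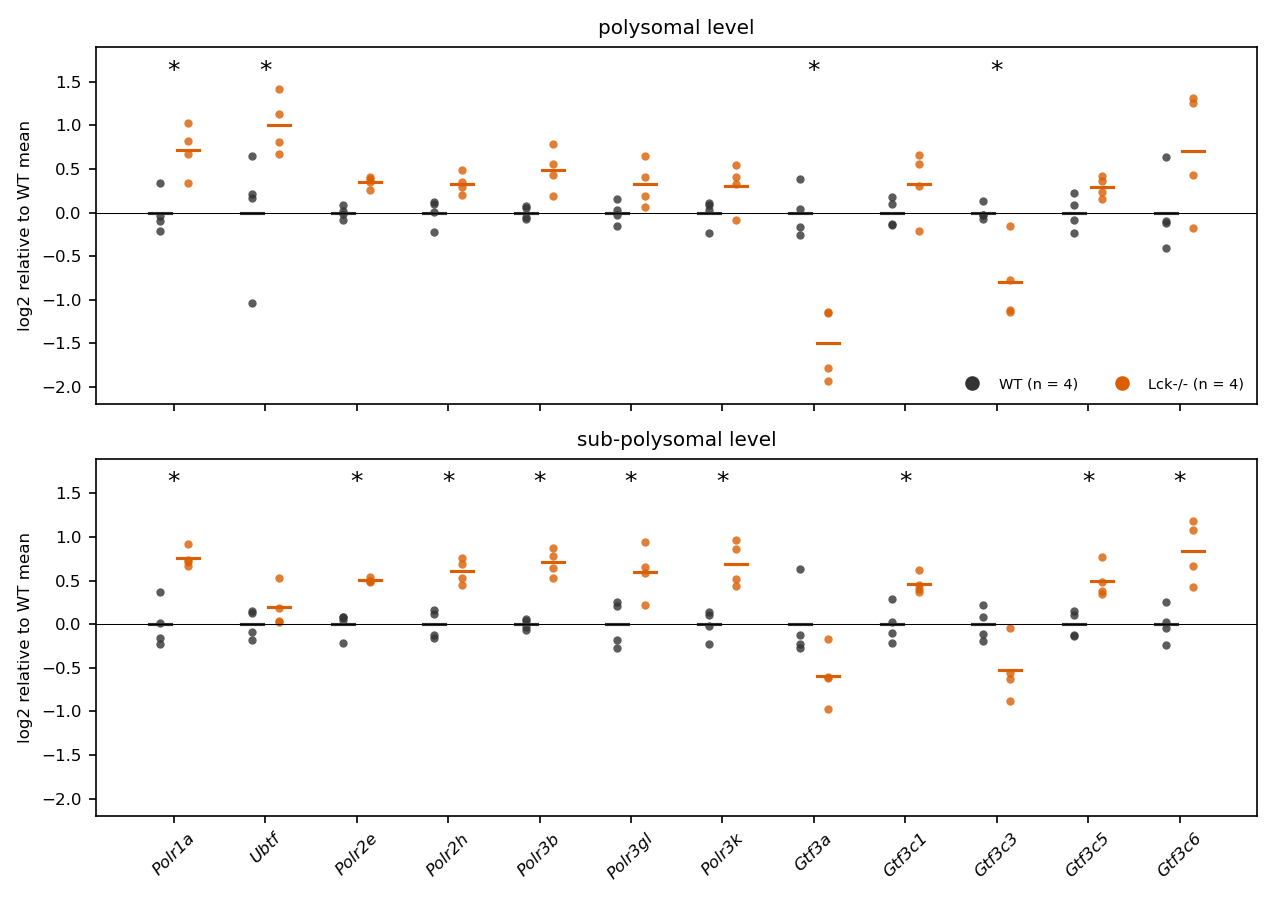
Level of the 12 members that passed in the polysomal (top) or sub-polysomal pool (bottom), as log2 relative to the WT mean of each gene; points are extracts (4 per genotype), bars are means and a star marks a limma adjusted p under 0.05. The 9 stars of the lower panel all stand over higher Lck-/- values, whereas Gtf3a and Gtf3c3 are lower in the upper panel.

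Compared by enzyme, subunits of polymerases I and III had larger median differences in levels than those of polymerase II. In the sub-polysomal pool the median difference was 0.39 over the 3 subunits of polymerase I alone, 0.28 over the 10 of polymerase III and 0.01 over the 8 of polymerase II. Polymerase I thus exceeded polymerase II by 0.38 and polymerase III exceeded it by 0.28. The SDs given beside gaps come from another measure, the gap between the median values of the lists in each extract. Within a genotype these SDs were 0.23 and 0.26. In the polysomal pool the medians were 0.30, 0.27 and 0.11, gaps of 0.19 and 0.16 that were under the SDs between extracts (0.43 and 0.38). In the ratio the medians were -0.04, -0.06 and -0.07, with gaps of 0.03 and 0.01 (SDs 0.14 and 0.25). The ratio gap of polymerase III was 0.40 with median centring and in the authors' deposited table, and without each extract in turn the ratio gaps ranged from -0.10 to 0.22 for polymerase I and from -0.13 to 0.14 for polymerase III, on both sides of 0. By extract, the median sub-polysomal level over polymerase III subunits was 9.09 to 9.47 in WT and 9.55 to 9.81 in Lck-/-, without overlap. For polymerases I and II the genotypes overlapped. The polymerase II medians by extract were 12.97 to 13.28 in WT and 13.14 to 13.48 in Lck-/-. Leaving out each extract in turn, the sub-polysomal gaps ranged from 0.25 to 0.52 for polymerase I (lowest without WT replicate 4) and from 0.10 to 0.41 for polymerase III (lowest without WT replicate 4), and the polysomal gaps from 0.10 to 0.41 and from 0.04 to 0.30. With median centring the sub-polysomal gap of polymerase III was 0.08. These are descriptions of lists, which share arrays and were given no test.

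**Figure D4:**
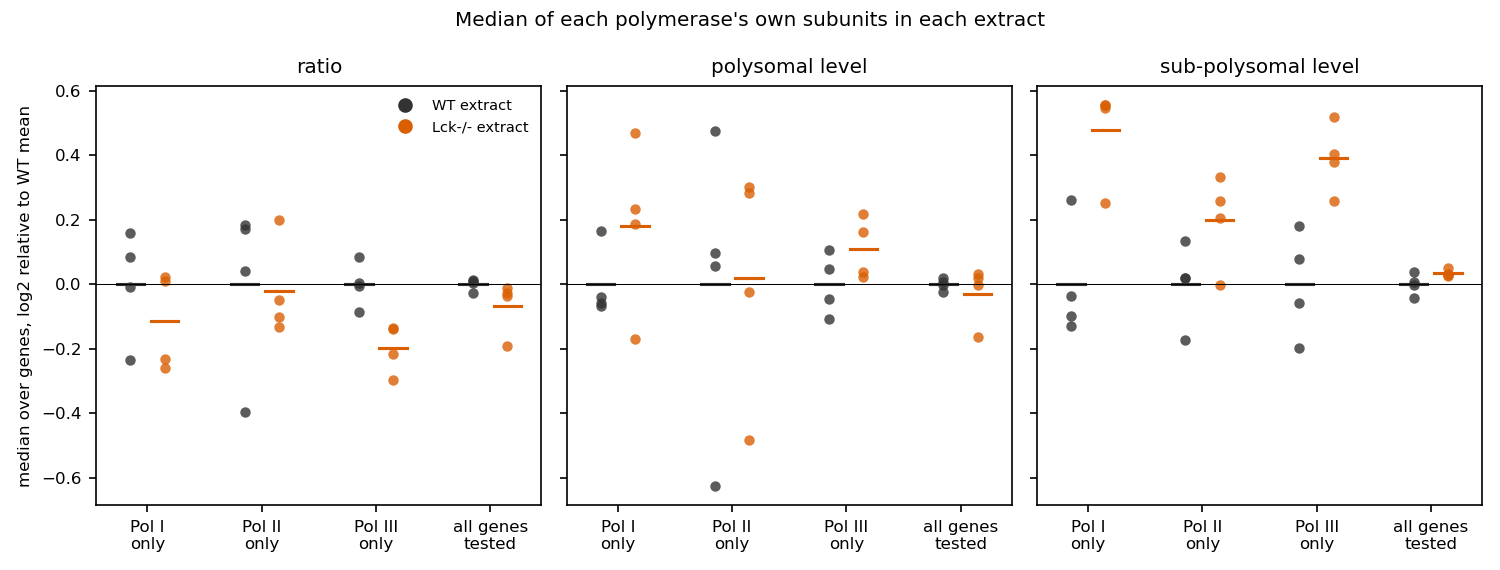
Median over the subunits that serve polymerase I (3), II (8) or III (10) alone and over all genes tested, in each extract, as log2 relative to the mean of the 4 WT extracts; panels are the ratio, the polysomal and the sub-polysomal level, and bars are means. In the sub-polysomal panel the Lck-/- extracts of polymerase III lie above all WT extracts, and for polymerase II the genotypes overlap.

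**Figure D5:**
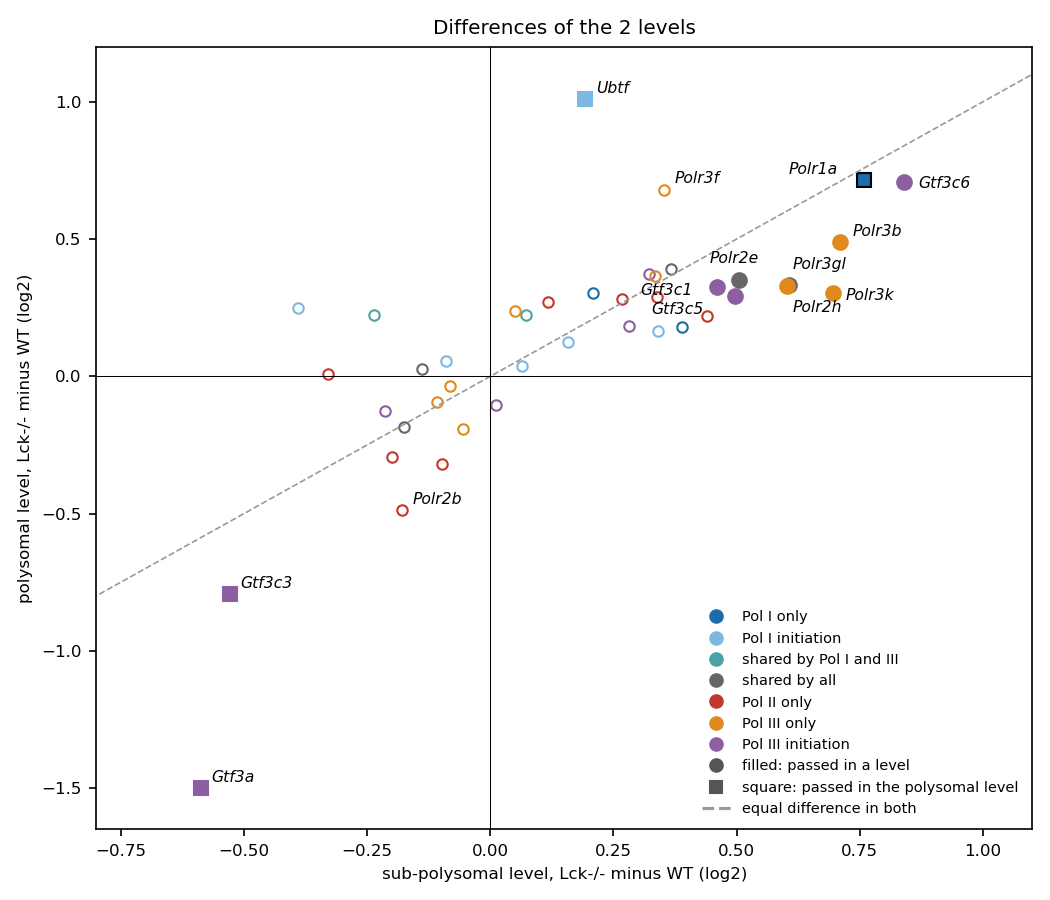
Difference between genotypes (Lck-/- minus WT, log2) in the polysomal level against that in the sub-polysomal level for 42 of the 43 members, coloured by enzyme; filled marks passed in a level, squares in the polysomal one, and the dashed line marks equal differences. Over all 43 members, 31 were above 0 in the polysomal and 28 in the sub-polysomal level, among them Polr3b (0.49 and 0.71) and Polr1a (0.71 and 0.76), while Gtf3a and Gtf3c3 lie below 0 in both.

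Scaling bears on these levels: with median centring the median of all genes moved to 0.37 in the sub-polysomal pool and -0.31 in the polysomal pool, 21 members then rose and 0 fell in the former (36.8% and 3.36% of all genes), and 0 rose and 6 fell in the latter (0.486% and 20.9%). The 9 sub-polysomal calls were all among these 21. The members' medians under median centring were 0.58 and -0.23.

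Promoter sequence was examined for the E-box CACGTG, the letters bound by Myc and related factors, in RefSeq promoter windows of build GRCm38.p6 around the gene start. The motif reads the same on both strands. Of 35 members with a window, 6 held it (17.1%): Polr3c, Polr3e, Polr3gl, Gtf3c6, Polr2h and Rrn3. Among all genes with a window the share was 8.09%, and among those tested for the sub-polysomal level 12.5%. Of the 9 members that rose in that pool 3 held it (Polr3gl, Gtf3c6 and Polr2h), and 3 of the other 26; a match is a run of letters, and binding was not measured here.

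Of 44 further genes of the polymerase pathway, taken from lists outside the name rule, 1 of 41 tested fell in the ratio and 0 rose (1.05% and 2.81% of all genes). In the polysomal pool 8 rose and 5 fell of 42 (5.96% and 9.25%), and in the sub-polysomal pool 11 rose and 1 fell of 41 (9.49% and 10.8%). Ssu72, a phosphatase of the polymerase II tail, had the ratio that fell (by 0.85, SE 0.16, adjusted p = 0.0190). Tcea1, the elongation factor TFIIS, had the smallest adjusted p in the sub-polysomal pool (0.64 higher, adjusted p = 0.00606), and Maf1, the repressor of polymerase III, rose there by 0.49 (adjusted p = 0.0176). Among the GTPases that assemble and import polymerases, Gpn1 and Gpn2 rose in both pools (by 0.50 and 0.62 in the sub-polysomal one), whereas Gpn3 fell in both (by 0.73 in the polysomal and 0.51 in the sub-polysomal pool). Of the kinase module of TFIIH, Cdk7 fell by 0.79 and Mnat1 by 0.55 in the polysomal pool. Cdk7 was dim there (mean 7.93 in WT and 7.14 in Lck-/-) and not bright enough for the sub-polysomal or ratio test. The module's cyclin Ccnh differed by -0.18 in the polysomal pool (SE 0.20, limma adjusted p = 0.587). The TFIIH subunits Gtf2h1 and Ercc2 rose there by 0.56 and 0.57. The other TFIIH subunits listed did not pass there and had no common direction. Gtf2h2, Ercc3 and Gtf2h3 differed by -0.49, -0.45 and -0.20, and Gtf2h4 and Gtf2h5 by 0.29 and 0.09.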

How the data were processed

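Per the file headers, spot and local background intensity and 0 or 1 quality flags (unit other) came from Agilent Feature Extraction 10.7.3.1, whose annotation places probes on mm9. The deposited files also give an intensity that the scanner software had background-subtracted and dye-normalized. The authors deposited log2 ratios as well; per the submitters' processing notes limma was used, with no version or settings. Those columns show the genotype but not which sample, and 0 per-sample columns were left unused.

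Mean intensity was corrected with normexp (offset 50) and normalized by loess in limma 3.58.1 (R 4.3.3, with the data.table package at 1.17.8), control and outlier spots having weight 0. Levels were scaled with Aquantile. Both arrays of an extract were averaged (n = 4 per genotype). Members kept the array's gene name, other probes were matched to RefSeq by accession, symbol or synonym, and a gene took its brightest probe. Ratios required 6 of 8 arrays well above background in both genotypes and channels, and levels required them in the channel and 1 genotype. Two-sided limma tests ran over all genes with Benjamini-Hochberg adjustment (threshold 0.05). The number of arrays limits the precision.

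Named were all members that passed but 1, which is counted and not reported here, the catalytic, second largest and alternative subunits, Brf1, Brf2, Rrn3 and Ubtf, and extremes of each class. The rule for members reads gene names only, but members and lists were chosen with earlier results of these data known. Alternatives changed the background, normalization, filter, probe, dye, slide, replicate block, extracts and dye-swap pairing; the other Ubtf probe was added after seeing the data. The fit was tested on simulated data.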

Additional observations from a re-analysis of the deposited data

Results flagged for a closer look

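The ratio of Gtf3a differed between genotypes by the test with the labelled pairing, with -0.91 (limma adjusted p = 0.0161). It did not pass with dye swaps exchanged (limma adjusted p = 0.662).

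Single extracts stood apart from the other 3 of their genotype in 22 of 254 groups of 4 values checked, by a gap over the range above Dixon's 95% value; chance gives about 1 in 20 groups, and members share arrays. In the ratio, Lck-/- replicate 2 was low for Polr1d (-1.17, others -0.58 to -0.51), Polr1e (-0.73), Polr3c (-0.83) and Taf1d (-2.01), and high for Ubtf (0.41, others -0.38 to -0.34). Lck-/- replicate 1 was high for Polr2k (-0.42) and low for Polr3b (0.41, others 0.91 to 0.92), and Lck-/- replicate 3 was low for Polr3e (-0.26). Among WT extracts, replicate 4 was low for Polr2j (-1.12) and replicate 2 high for Polr3g (0.41).

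In the polysomal level, WT replicate 4 was high for Polr2g (14.68) and low for Polr2k (12.76), and WT replicate 1 was high for Polr1b (11.22). Lck-/- replicate 4 was low for Gtf3c2 (10.51) and Lck-/- replicate 1 high for Polr2a (8.77). In the sub-polysomal level, WT replicate 4 stood apart for Polr1c (13.02), Polr2m (14.77) and Polr3e (10.30), all high, and for Brf2 (8.25) and Polr2e (13.36), both low. WT replicate 3 was high for Gtf3a (11.80) and Lck-/- replicate 3 low for Polr1b (10.94). The Gtf3a arrays of WT replicate 1 read 11.70 and 10.18, and those of WT replicate 2 read 10.14 and 11.94. The means of these extracts thus average unlike readings, and WT replicate 3 stood apart with the labelled pairing.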

How the results depend on the processing

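Of the 41 members tested, the ratio differed between genotypes for 2 as reported, for 26 with median centring, 31 with no normalization and 38 in the authors' deposited table, all lower. The count was 1 with the mean of probes, 1 on slide 1 alone (higher), and 0 on slide 2, with the polysomal pool in Cy5 or in Cy3 alone, with crossed dye swaps and without WT replicates 1 and 2. Leaving out each extract in turn gave 0 (without WT replicate 1 or Lck-/- replicate 4) to 4 (without Lck-/- replicate 2). The polysomal count of 4 became 7 with no normalization and 7 on slide 2, 2 with no filter, 2 with crossed dye swaps, 1 with the polysomal pool in Cy3, 1 without WT replicates 1 and 2, and 0 in Cy5 or on slide 1. It ranged from 1 (without WT replicate 2 or 3 or Lck-/- replicate 3 or 4) to 10 (without Lck-/- replicate 1). The sub-polysomal count of 9 became 21 with median centring, 24 with no normalization, 15 on slide 1, 2 on slide 2, 4 in Cy5, 2 in Cy3 and 4 without WT replicates 1 and 2, and ranged from 6 to 10. Members off 0 in WT numbered 25, or 38 with no normalization and 40 in the authors' deposited table, and 21 to 26 without each extract. In Lck-/- they numbered 27, or 15 with median centring, 10 in Cy5, 15 in Cy3, 14 on slide 1, 15 on slide 2, 14 with crossed dye swaps, and 17 (without Lck-/- replicate 4) to 27 without each extract. Shares of all genes are given above for the reported settings, and for some counts with median centring, single slides and the authors' deposited table. The other counts have no such share beside them and are not results about the members. The cause of these shifts was not tested.

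The gap of polymerase III over II in the ratio moved from 0.01 to 0.40 with median centring, no normalization and the authors' deposited table, centred or not (-0.13 to 0.14 without each extract). That of polymerase I over II moved from 0.03 to -0.20 on slide 1 and ranged from -0.10 to 0.22 without each extract. Ratios called lower where the reported difference was above 0 were, with median centring, Gtf3c2 -0.73, Polr1d -0.88, Polr2i -1.02, Polr2k -0.88, Polr2l -1.12 and Polr3c -0.73. With no normalization they were Gtf3c2 -0.74, Polr1d -0.88, Polr1e -0.70, Polr2i -1.02, Polr2k -0.88, Polr2l -1.12, Polr3c -0.73, Polr3d -0.61 and Polr3g -0.58. In the authors' deposited table they were Gtf3c2 -1.12, Gtf3c4 -0.84, Polr1c -0.85, Polr1d -1.25, Polr1e -1.10, Polr2i -1.44, Polr2k -1.24, Polr2l -1.53, Polr3c -1.08, Polr3d -0.94, Polr3g -0.94 and Ubtf -0.81.

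Replicate numbers did not pair the extracts (same-number correlations 0.06, -0.17, 0.26 and -0.24). With the replicate number as a block, 1 member passed in the ratio, 3 in the polysomal and 5 in the sub-polysomal level. Dim probes limit Taf1a and Taf1b, which had no tested ratio.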
